A study of Homo sapiens with 6 samples.

Results

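This section describes baseline nascent transcription in A375, an established human malignant melanoma cell line, in cells given the solvent DMSO alone for 48 h. The description uses the 2 DMSO samples of a series of 6; no value from the cells given leflunomide or A771726 was used. The deposited tables hold 22442 rows for 20845 RefSeq transcripts, 19240 of them protein-coding rows and 3202 non-coding rows. One row was kept for each gene symbol, the row with the highest DMSO gene body density, which left 12438 genes: 10719 coding and 1719 non-coding.

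Global run-on sequencing (GRO-seq) lets RNA polymerases that are already engaged on DNA extend their transcripts in isolated nuclei, so the reads mark where polymerase is at work and not how much mature RNA has accumulated. RNA polymerase II commonly pauses just downstream of the start site before it is released into the gene body by the kinase P-TEFb, which is held inactive by HEXIM1 and the 7SK RNA. The traveling ratio, promoter density over gene body density, is the usual measure of such pausing: a high ratio means much polymerase near the start for the amount that reaches the gene body.

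Each value below is the authors' mean of both DMSO libraries. The libraries were deposited as means, so no SD and no test across samples belongs to these values. Genes are not replicates, and medians and quartiles over genes describe the spread between genes alone. No row has a DMSO traveling ratio above 7.5 or a gene body density below 0.0001, so strongly paused genes and genes without gene body reads were not analysed here. The labels do not say whether the replicates came from separate cultures.

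For 4479 genes (36.0%), all with a promoter value above 0, the values of both libraries could be worked out from the means. Of the solved promoter values 78.6% lay on multiples of 0.0438 density units in DMSO library 1 or 0.052 in library 2. These steps are read here as the worth of 1 promoter read, so a mean promoter density of 0.0219 is read as 1 read in library 1 and none in the other. The 4479 genes are those whose values fit these steps. Some other means lie below 0.0219, as in MIR4763 at 0.00105, so the steps do not hold for every gene. The median promoter density of the genes above 0 was 0.07295, a mean to which 1 read adds 0.0219 in library 1 or 0.026 in library 2. It thus rests on few reads over both libraries. Gene body densities of the libraries were close: across these genes Spearman's rho was 0.815 (n = 4479 genes of the same 2 libraries, a description), and 82.4% lay within 2-fold of each other after the median log2 difference of 0.20 was removed. Traveling ratios were much less alike, with a rho of 0.26 and 51.0% within 2-fold among the 1956 genes with promoter reads in both libraries. The limit of 7.5 on the mean also bounds that cloud of points. Levels of single genes are therefore better determined for gene bodies than for ratios.

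**Figure D1:**
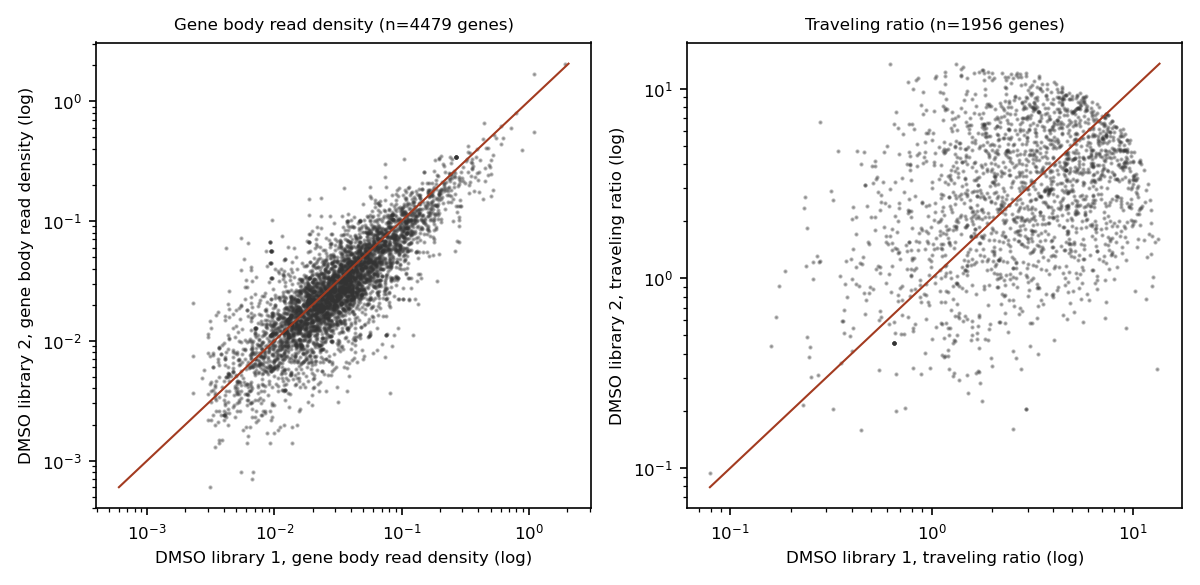
Gene body density (left, 4479 genes) and traveling ratio (right, 1956 genes) in DMSO library 1 on the x axis and DMSO library 2 on the y axis, both log axes, 1 point per gene, with the line of equality. Gene bodies follow the line (rho 0.815), ratios scatter widely (rho 0.26), and the empty corner at upper right is where the mean ratio would pass 7.5.

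Summed gene body density was concentrated in few genes. The median gene body density of all 12438 genes was 0.0196, with quartiles of 0.0075 and 0.043. The highest 10.0% of genes, the 1245 genes at a density of 0.091 or more, held 66.4% of the summed gene body density, and the 10 highest genes alone held 24.3%. These are shares of density per gene, not weighted by gene length, and so not shares of all transcription. Overlapping genes, such as PMF1 and PMF1-BGLAP among the 10 highest, can count the same reads more than once. At the other end, 556 genes lay at or below 0.001. Promoter density was 0 in 5345 genes, 43.0% of all.

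The highest gene was LOC284801, now named MIR663AHG, a long non-coding RNA gene that hosts a microRNA. Its gene body density was 60.97 and its promoter density 381.6. This gene alone held 7.98% of the summed gene body density and 27.2% of the summed promoter density. Further genes above 16 were the microRNA genes MIR4521 at 22.6, MIR3676 at 20.5 and MIR4638 at 16.8, and the non-coding gene LINC00273 at 21.0, whose promoter density was 0. The coding genes C17orf59 (now BORCS6, a subunit of the BORC complex that positions lysosomes) at 15.4 and PMF1 (a kinetochore protein) at 9.33 came next, with the read-through gene PMF1-BGLAP at 8.42.

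Several of these leaders stand beside genes that RNA polymerase III transcribes. In the RefSeq annotation of GRCh38.p14, used here for neighbours only, 4 transfer RNA genes lie within 1000 bases of MIR4521, 2 within 1000 bases of MIR4638 and 1 within 1000 bases of C17orf59. The same holds for the long non-coding gene LINC00324 (2.94, with 4 transfer RNA genes) and for HES7, a repressor of the Notch pathway (1.98, with 4). HES7 had gene body densities of 1.91 and 2.05 in the 2 libraries and a single promoter read in one of them. Of the 47 genes with a transfer RNA gene in that distance, 11 (23.4%) were in the top 10.0%, and 4 of the 20 highest coding genes had one. GRO-seq reads of such neighbours and of the named gene were not separated here, and their part in these densities was not tested. PCBD2, a coding gene at 3.61, has 6 pseudogenes of mitochondrial genes within its span or within 1000 bases of it. The mitochondrial-like genes MTRNR2L1 and MTRNR2L2 stood at 2.26 and 1.51. Counts of such near-identical copies are uncertain.

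The mature sequences of the microRNAs named above that the RefSeq table (GRCh38.p14) holds are shown to identify them, beside 5 well-studied microRNAs chosen after their values were seen. Capitals mark the seed, bases 2 to 8, which miR-221-3p shares with miR-222-3p and let-7i-5p with let-7d-5p. Of the 366 microRNA genes, 331 had a mature sequence in that table.
hsa-miR-4521: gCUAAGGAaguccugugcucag
hsa-miR-4638-5p: aCUCGGCUgcgguggacaagu
hsa-miR-4638-3p: cCUGGACAccgcucagccggccg
hsa-miR-21-5p: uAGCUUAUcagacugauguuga
hsa-miR-221-3p: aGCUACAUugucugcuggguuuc
hsa-miR-222-3p: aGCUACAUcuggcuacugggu
hsa-let-7i-5p: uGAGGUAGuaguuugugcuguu
hsa-let-7d-5p: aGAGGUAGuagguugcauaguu

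Coding and non-coding rows differed in level, and the difference came with the small RNA genes. The median gene body density was 0.028 in the 1719 non-coding genes and 0.0185 in the 10719 coding genes, a log2 difference of -0.60 for coding over non-coding. Of the non-coding genes 348 (20.2%) were in the top 10.0% of all genes, against 897 coding genes (8.37%). Without microRNA, small nucleolar and other small RNA genes, the remaining 1116 non-coding genes had a median of 0.0184 and a share of 9.14% in the top 10.0%, and the log2 difference became 0.00978. The coding level was then no longer the lower of the pair. Gene length, on which the smallest density above 0 can depend, was not taken into account in comparing classes.

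Within the non-coding rows the classes spread widely. Box C/D small nucleolar RNAs, which guide methylation of ribosomal RNA, had the highest well-filled class median: 0.1875 over 123 genes, with 91 (74.0%) in the top 10.0%. Over the 52 of these genes with recovered libraries the medians were lower, 0.108 and 0.0901, and 50% and 48.1% were in the top 10.0% of the recovered genes; their deposited means had a median of 0.1035. H/ACA and Cajal body RNAs, which guide pseudouridylation and modify spliceosomal RNAs, followed at 0.117 over 93 genes, with 58 (62.4%) in the top 10.0%. The 21 other small RNA genes had a median of 0.306, but 10 of them are SNAR-A copies with the same deposited values, so this median is the value of 1 repeated sequence. MicroRNA genes had a median of 0.0416 over 366 genes, with 82 (22.4%) in the top 10.0%.

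Long non-coding RNA genes were close to the median of all genes. Their own median was 0.0195 over 626 genes, with 73 (11.7%) in the top 10.0%. Behind LOC284801, the leaders were LINC00324 at 2.94, NEAT1, the scaffold of nuclear paraspeckles, at 2.51, and MALAT1, a nuclear speckle RNA, at 2.33. NEAT1 and MALAT1 had similar gene bodies but unlike promoters, 5.72 against 0.0615, and so ratios of 2.30 and 0.025. Transcribed pseudogenes were the lowest class, with a median of 0.0147 over 296 genes and 12 (4.05%) in the top 10.0%; the authors' counting may have split reads between them and their parent genes. RPL13AP5, a copy of the ribosomal protein gene RPL13A, stood at 1.11 against 1.05 for RPL13A, with the same promoter density of 0.872 for both, so the pair cannot be told apart.

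**Figure D2:**
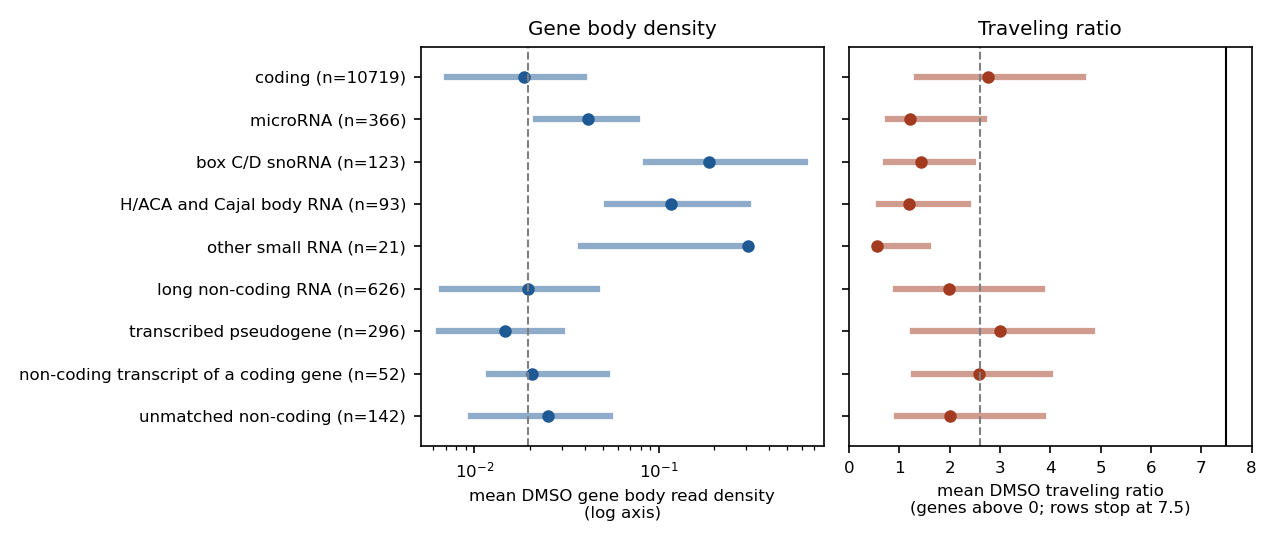
Gene body density (left, log axis) and traveling ratio (right, genes above 0) by class of RNA in DMSO; points are medians over genes, bars run from the lower to the upper quartile, dashed lines are the medians of all genes and the solid line is the limit of 7.5. The small nucleolar RNA classes (medians 0.1875 and 0.117) lie to the right of coding genes in density and to the left of them in ratio; the 21 other small RNA genes, mostly SNAR copies, lie further right (0.306).

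Most small RNA genes lie within the span of another gene, here called the host, and most pairs stood at similar levels. Hosts were assigned by position alone and strand was not compared, so some pairs may lie on opposite strands. Of 364 small RNA genes placed inside one of 254 hosts with a value of its own, 224 (61.5%) were above the host, with a median log2 difference of 0.19 and quartiles of -0.27 and 0.79. Only 59 were 2-fold or more above and 37 were 2-fold or more below. Hosts of box C/D RNAs had a median gene body density of 0.321, and 79.5% of these 39 hosts were in the top 10.0%; hosts of microRNAs had a median of 0.0338, and 16.6% of these 175 were. A small RNA and its host can share reads where their windows overlap, so such pairs are not independent measurements.

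NOP56, a core protein of box C/D ribonucleoproteins, was at 1.87, while SNORD86, SNORD56, SNORD110 and SNORA51 in its introns were between 5.15 and 5.26. GAS5, a non-coding gene known for its intronic small nucleolar RNAs, was at 1.41, and 8 such RNAs in it ran from 1.35 to 2.68, with 7 of the 8 above the host. In SNHG1 (0.821) 6 of 8 were above the host, and in TAF1D (0.2315), which codes for a factor of RNA polymerase I, 7 of 8 were. By contrast, all 4 in EIF4A2 (0.415), 4 in RPL4 (0.181) and 3 in RPL7A (1.00) were below their hosts. The direction of the difference thus varied from host to host.

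MicroRNA genes differed more often from their hosts, which were assigned without regard to strand. Of 210 pairs, 48 were 2-fold or more above the host and 22 were 2-fold or more below, against 5 and 11 of 82 box C/D pairs. MIR612 was at 0.313 inside NEAT1 at 2.51, and MIR135B at 0.0573 inside LEMD1 at 0.001. Other pairs were close. MIR17HG, the host of the miR-17-92 cluster, was at 0.166, with 0.194 and 0.1385 in the 2 libraries. Its 6 microRNA genes MIR17, MIR18A, MIR19A, MIR20A, MIR19B1 and MIR92A1 lay within a narrow range, from 0.1805 in MIR20A to 0.208 in MIR19A. MIR25 was at 0.230 inside MCM7, a subunit of the replicative helicase, at 0.164. Among the microRNAs shown above, MIR21 was at 0.413, MIR222 at 0.286, MIRLET7I at 0.266, MIR221 at 0.244 and MIRLET7D at 0.219. These 5 were picked from the highest microRNA genes, so their place in the top 10.0% follows from that choice. Of all 366 microRNA genes 22.4% were there.

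Gene lists by function were then compared by their medians. Of 38 lists with members, 27 had a median above that of all genes (0.0196) and 20 had more than 10.0% of members in the top 10.0%. Lists overlap where a gene has more than 1 role, as NCL does, and membership follows symbol patterns or short hand-made lists.

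Hosts of small nucleolar RNAs and cytosolic ribosomal protein genes had the highest list medians, and other lists of protein synthesis were lower. The 78 cytosolic ribosomal protein genes had a median gene body density of 0.240, with quartiles of 0.189 and 0.315, and 72 (92.3%) were in the top 10.0%. Among the highest members were RPL13A at 1.05, RPL7A at 1.00 and RPL12 at 0.592. The exceptions at the low end, chosen after their values were seen, were paralogs known from restricted tissues: RPL39L at 0.00465, and the muscle gene RPL3L at 0.0117, the single member with a promoter density of 0. Mitochondrial ribosomal protein genes were more moderate, with a median of 0.0543 over 54 genes and 15 (27.8%) in the top 10.0%, led by MRPL20 at 0.277. Translation factors had a median of 0.0582 over 47 genes, led by the RNA helicases EIF4A1 at 0.445 and EIF4A2 at 0.415, and MYC and ribosome biogenesis factors one of 0.0687 over 18 genes. Aminoacyl-tRNA synthetases, which charge transfer RNA, had a median of 0.0404 over 10 genes, with 0 in the top 10.0% and MARS highest at 0.0834. NCL, the nucleolar protein nucleolin, was at 0.390 and 0.396 in the 2 libraries. The 19 listed hosts of small nucleolar RNAs with a value, coding and non-coding, had the highest median of any list, 0.415, with 18 (94.7%) in the top 10.0%.

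Replication-dependent histone genes, which lack introns and are transcribed in S phase, had a median of 0.208 over 58 genes, with quartiles of 0.113 and 0.328 and 49 (84.5%) in the top 10.0%. HIST2H2AA4 led at 1.57, with HIST2H4B at 1.03, HIST2H2AB at 0.953 and HIST2H3A at 0.715. Here too the lowest included testis-type members, again chosen after their values were seen: HIST3H3 at 0.00985 and HIST1H1T at 0.033 both had a promoter density of 0. Several histone genes are near-identical copies, so counts may be split among them or shared.

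The promoters of these 4 histone genes are printed with TATAAA and CCAAT (or ATTGG, its other strand) in capitals, the letters counted over the whole list below. HIST2H4B holds neither in the stretch shown, and the other 3 hold both. The 100 bases before the annotated start are given 5′ to 3′ from RefSeq, GRCh38.p14, whose build differs from the hg18 of the deposited files, and no position was converted between builds. HIST2H2AA4 is at chr1:149850961-149851060 (plus strand), HIST2H4B at chr1:149861160-149861259 (minus), HIST2H2AB at chr1:149887966-149888065 (minus) and HIST2H3A at chr1:149852508-149852607 (plus).
HIST2H2AA4: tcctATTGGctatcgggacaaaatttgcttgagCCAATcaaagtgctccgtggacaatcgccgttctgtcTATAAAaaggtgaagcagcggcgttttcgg
HIST2H4B: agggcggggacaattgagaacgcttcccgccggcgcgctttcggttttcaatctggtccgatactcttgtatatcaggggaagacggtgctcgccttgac
HIST2H2AB: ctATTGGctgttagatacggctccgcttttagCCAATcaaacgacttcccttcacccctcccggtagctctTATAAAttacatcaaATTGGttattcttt
HIST2H3A: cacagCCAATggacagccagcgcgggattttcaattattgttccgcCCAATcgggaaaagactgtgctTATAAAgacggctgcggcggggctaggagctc

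Promoter letters were searched in windows of 250 bases before to 50 bases after the start, on both strands, with TATAAA (or TTTATA, its other strand) searched only where it begins 40 to 20 bases before the start. Of all 12438 genes 9122 (73.3%) matched a window, and values are given only for lists with at least 80% matched. Among 54 matched histone genes, 29 (53.7%) held TATAAA there and 48 (88.9%) held CCAAT, against 2.78% and 36.0% of all matched promoters. The letters CCGGAAG, a core that ETS factors bind, were in 22 of 49 (44.9%) mitochondrial ribosomal protein promoters and 110 of 264 (41.7%) zinc finger (ZNF) promoters, against 15.1% of all matched promoters. AAGATGGCG, a YY1-type motif, was in 9 of the 49 (18.4%) mitochondrial ribosomal protein promoters and in 2.84% of all. Promoter densities of 0 were counted among matched coding genes at or above a gene body density of 0.00955. The share was 13.0% of the 1165 with CCGGAAG and 27.2% of the 4811 without it. This was not particular to CCGGAAG. Shares with and without other searched motifs were 10.9% and 24.7% (NRF1 type), 13.5% and 24.8% (CRE type) and 15.4% and 24.8% (YY1 type). They were 19.3% and 25.0% for the E-box, 22.3% and 25.8% for CCAAT and, the other way, 29.3% and 24.3% for TATAAA. Among the 1574 genes with the lowest CG counts the share was 36.6%, and the part of CG count was not tested. A match describes letters in a window and is not a binding site.

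Genes of growth signalling, the cytoskeleton and metabolism stood above the median of all genes. A375 carries an activating BRAF mutation that drives the MAPK pathway. The 27 immediate early and MAPK feedback genes had a median gene body density of 0.113, with 14 (51.9%) in the top 10.0%. PHLDA1 was at 0.831, IER3 at 0.499, the ERK phosphatase DUSP6 at 0.368 and the AP-1 subunit FOSL1 at 0.355 (0.334 and 0.377 in the 2 libraries). Tubulins and actins had a median of 0.0969 over 16 genes, led by ACTB at 0.392 and TUBA1B at 0.364. The libraries differed by more for these, with 0.491 and 0.294 for ACTB and 0.453 and 0.276 for TUBA1B. Glycolysis genes had a median of 0.0681 over 18 genes, with GAPDH at 0.5635, and splicing factors one of 0.0789 over 51 genes, led by HNRNPA2B1 at 0.410 and HNRNPA1 at 0.386.

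The lists of the cell cycle and of stress responses were mostly nearer the middle. DNA replication genes had a median of 0.0341 over 19 genes, led by MCM7 at 0.164, and mitosis and kinetochore genes one of 0.0407 over 12, led by CDC20 at 0.179. p53 targets had a median of 0.0550 over 20 genes, with AEN, a nuclease, at 0.173 and GADD45A at 0.140. The ATF4 and amino acid stress list was uneven: DDIT4, an inhibitor of mTOR signalling, was at 0.496 and ATF4 at 0.334, while the median over 16 genes was 0.0381. NF-kB and inflammatory genes had a median of 0.0201 over 14 genes, close to that of all genes.

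Housekeeping lists filled the range between. Proteasome subunits had a median of 0.0505 over 26 genes, led by PSMB4 at 0.358 (0.347 and 0.369 in the 2 libraries), and RNA polymerase II subunits one of 0.0616 over 10, led by POLR2L at 0.111. The respiratory chain and ATP synthase list had a median of 0.0431 over 53 genes, with NDUFB10, a subunit of complex I, highest at 0.569. Chaperonins and heat shock proteins had one of 0.0443 over 54 genes, with HSPA8, the constitutive HSP70, at 0.640 and HSP90AB1 at 0.463. Among antioxidant targets of NRF2 (median 0.0500 over 9 genes) the ferritin light chain FTL was at 0.276 and the quinone reductase NQO1 at 0.124. Purine synthesis genes had a median of 0.0285 over 10 genes, of which IMPDH2, the enzyme that commits IMP to GMP, stood at 0.341, while sterol synthesis genes had one of 0.0241 over 12, led by FDPS at 0.0863.

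Families of regulators and of tissue-restricted genes lay on both sides of the median of all genes. The 323 zinc finger (ZNF) genes had a median of 0.018, with 8 (2.48%) in the top 10.0% and ZNF513 highest at 0.216. HOX genes, which pattern the body axis, had a median of 0.0347 over 25 genes, with 21 (84.0%) above the median of all genes, and HOXB2 at 0.107 was the single one in the top 10.0%. Interferon response genes had a median of 0.0315 over 14 genes, led by B2M at 0.121. Cancer-testis antigens, normally limited to the testis, had a median of 0.0196 over 21 genes with MAGEA4 at 0.165, interleukins and chemokines 0.0178 over 22 with IL24 at 0.124, and protocadherins 0.0164 over 39 with none in the top 10.0%.

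The lowest lists were those of differentiated tissues. Potassium and sodium channels and collagens shared the lowest median, 0.00475, over 61 and 35 genes. None of the 61 channel genes was in the top 10.0%, with KCNN4, a calcium-activated potassium channel, highest at 0.0908; among collagens COL7A1 was at 0.121 and COL6A1 at 0.0979. Cytochromes P450 had a median of 0.007 over 19 genes, taste receptors 0.0114 over 9, solute carriers 0.0120 over 209 and keratins 0.0131 over 10. Olfactory receptors had a median of 0.0122 over 27 genes. Of the 27, 26 (96.3%) had a promoter density of 0, against 48.1% in the tenth of all genes that holds this median. OR51B6 was the exception, at 0.104. A gene body value above 0 was a condition for having a row, so these medians leave out members without a row. The smallest density above 0 can also depend on the length of a gene. Length was not taken into account, so ranks of lists of short and of long genes may not compare directly.

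**Figure D3:**
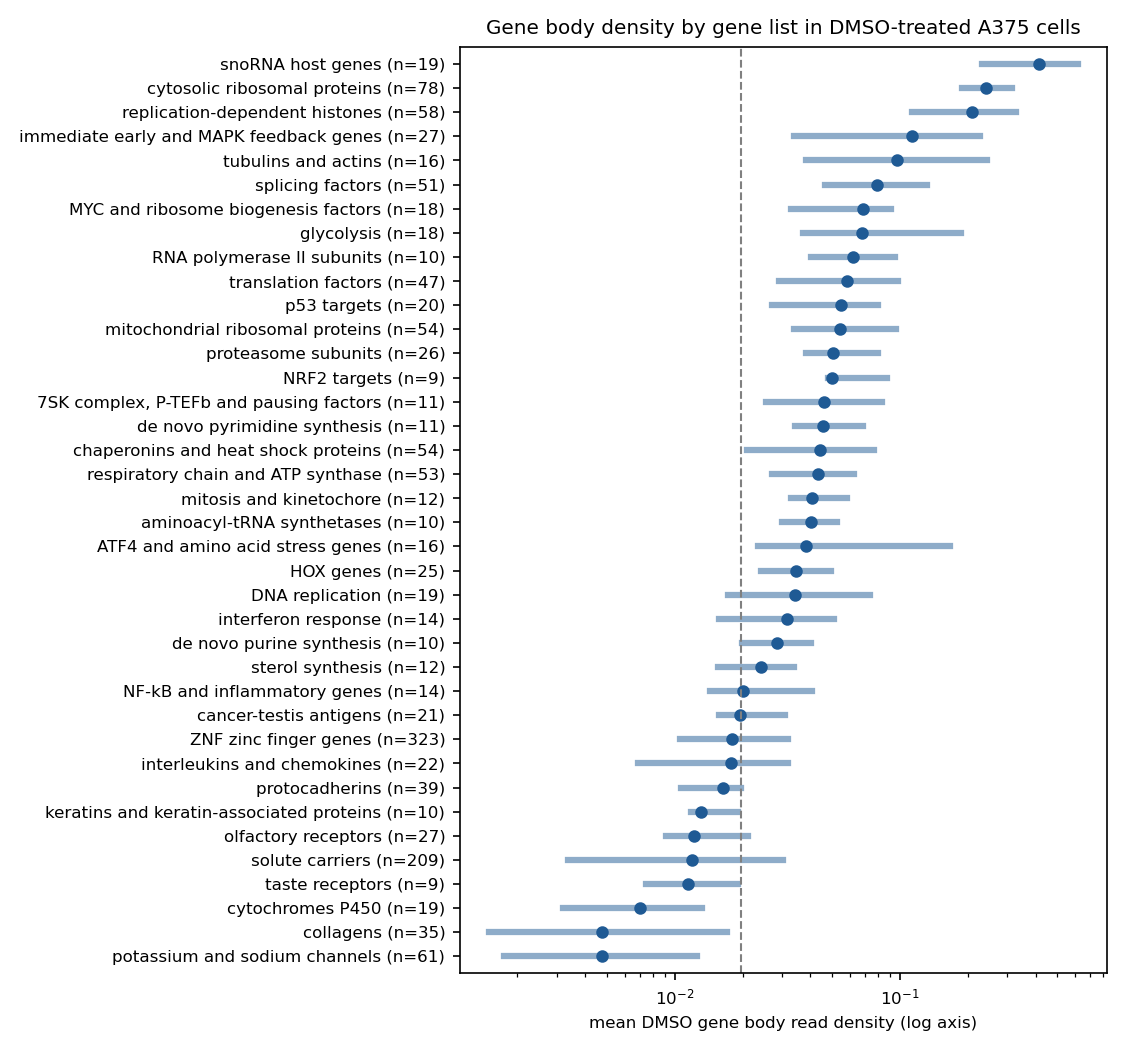
Gene body density by gene list in DMSO (log axis); points are medians over the genes of a list, bars run from the lower to the upper quartile, n is the number of genes and the dashed line is the median of all genes, 0.0196. The lists run from hosts of small nucleolar RNAs (0.415) and cytosolic ribosomal proteins (0.240) at the top to channels and collagens (both 0.00475) at the bottom.

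The melanocytic identity of the cells was checked with marker genes. Of 24 listed melanocyte and melanoma symbols, 18 had a row, and 8 of these (44.4%) were in the top 10.0%. VIM, the mesenchymal filament vimentin, was at 0.805, SOX10, a neural crest transcription factor, at 0.329 (0.327 and 0.330 in the 2 libraries), S100A1 at 0.245, CD63 at 0.195, the melanocortin receptor MC1R at 0.1885, ERBB3 at 0.145, NES at 0.105 and CSPG4 at 0.0921. The melanocyte factor MITF was at 0.0223 and the pigment proteins MLANA and PMEL at 0.0152 and 0.0104, and all 3 had a promoter density of 0. SOX10 and VIM were thus among the highest genes, and MLANA and PMEL were below the median of all genes.

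Of 60 markers of 9 other cell types, 25 had a row; their median was 0.00785 and 20 had a promoter density of 0. The hepatocyte list had no row. The 4 in the top 10.0% were CD68 at 0.2315, KRT10 at 0.134, CD79A at 0.104 and SFN at 0.103; of these CD68, a lysosomal protein, had a promoter density of 0.590, SFN one of 0.052, and KRT10 and CD79A 0.

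HEXIM1 and DHODH, the genes in the study's title, stood far apart at baseline. HEXIM1 had gene body densities of 0.260 and 0.206 in the 2 libraries (mean 0.233, rank 355 of 12438) and promoter densities of 0.263 and 0.312, with a mean ratio of 1.26. DHODH, the enzyme of pyrimidine synthesis in the mitochondrial inner membrane, had gene body densities of 0.0136 and 0.0113 (mean 0.0125, rank 7882), and its promoter values of 0.0438 and 0.052 are 1 read in each library. Its ratio of 3.91 rests on those reads. The libraries did not overlap between the 2 genes.

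Around HEXIM1, the 11 genes of the 7SK complex, P-TEFb and pausing factors with a row had a median of 0.0458, with 3 (27.3%) in the top 10.0%. MEPCE, the enzyme that caps 7SK RNA, was at 0.258, TH1L (NELFCD), a subunit of the pausing factor NELF, at 0.110, HEXIM2 at 0.0563, and CCNT1, the cyclin of P-TEFb, at 0.0498. The 11 pyrimidine synthesis genes had a median of 0.0454, led by RRM2 at 0.1203 and NME2 at 0.111, and DHODH was the lowest of them but for CTPS2 at 0.00565.

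The 10 genes with the highest promoter densities also ranked high by gene body density, in another order, between rank 1 and rank 68 of 12438. After LOC284801, the highest promoters were those of MIR3676 (19.4), MIR4521 (12.5), MIR4638 (11.2), MTRNR2L2 (7.99), SNORD33 (5.92), SNORD80 (5.76), NEAT1 (5.72), S100A6 (4.94) and SNORD55 (4.88). Besides MTRNR2L2, S100A6, a calcium-binding protein, was the only coding gene among these 10, at a ratio of 6.18. For small genes the promoter window may cover the whole transcript, but the limits of the windows are not given in the labels or file headers.

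Promoters that held much polymerase signal, and that of HEXIM1, are printed as before, 100 bases before the start with TATAAA and CCAAT letters in capitals. S100A6 is at chr1:153535992-153536091 (minus strand), EIF4A2 at chr3:186783477-186783576 (plus), METTL12 (now CSKMT, a methyltransferase of mitochondrial citrate synthase) at chr11:62665212-62665311 (plus) and HEXIM1 at chr17:45148375-45148474 (plus).
S100A6: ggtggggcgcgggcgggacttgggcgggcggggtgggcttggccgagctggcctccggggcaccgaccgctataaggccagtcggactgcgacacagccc
EIF4A2: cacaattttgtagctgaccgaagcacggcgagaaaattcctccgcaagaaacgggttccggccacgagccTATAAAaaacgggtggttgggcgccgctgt
METTL12: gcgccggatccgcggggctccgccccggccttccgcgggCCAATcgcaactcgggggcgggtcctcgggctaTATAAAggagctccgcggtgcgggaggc
HEXIM1: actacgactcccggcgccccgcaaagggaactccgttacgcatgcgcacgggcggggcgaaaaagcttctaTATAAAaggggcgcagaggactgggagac

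Of the 6 coding genes with the highest promoter densities that were considered for printing, 2 hold TATAAA, METTL12 and EIF4A2, and these were picked for printing after their values and letters were seen. METTL12 had a promoter density of 2.69 and a ratio of 6.23, EIF4A2 one of 2.06 and a ratio of 5.04, and HEXIM1 0.287 and 1.26. Among matched coding genes at or above 0.00955, the 167 with TATAAA had a median gene body density of 0.0568 and a median ratio of 2.01, and the 5809 without had 0.0294 and 2.61. In the tenth of all genes by gene body density that holds 0.0568 the median ratio was 1.97, and in that holding 0.0294 it was 2.74. The 2 ratios thus lie near those of all genes at the same density. Up to 29 of the 167 can be histone genes, whose list median density was 0.208.

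Promoter densities of 0 were most frequent among weakly transcribed genes, where a value of 0 means no read at this depth and not absence of polymerase. In genes ordered by gene body density and divided into deciles, promoter density was 0 in 6.11% of the highest decile and 99.2% of the lowest. Part of this gradient is fixed by the limit on the ratio: below a gene body density of 0.00292 in both libraries, 1 promoter read in library 1 would already pass 7.5, and of the 1478 genes below it 23 had a promoter value above 0. Among the 8707 genes at or above 0.00955, the share at 0 was 26.1%, with 25.8% of coding and 27.4% of non-coding genes. In the full set the shares were 43.4% and 40.1%. At or above 0.00955, 1 promoter read in library 1 does not pass the limit where both libraries have equal gene bodies. Genes with more promoter reads can still pass it and have no row, so the 26.1% is not free of the limit. By list, a promoter density of 0 was found in 52 of 61 channel genes (85.2%), 26 of 35 collagens (74.3%) and 121 of 209 solute carriers (57.9%), against 1 of 78 cytosolic ribosomal protein genes (1.28%) and 2 of 58 histone genes (3.45%). The decile of all genes that holds the list median had 82.4% at 0 for channels and for collagens. It had 48.1% for solute carriers and 6.11% for ribosomal protein and histone genes. These shares thus largely follow gene body density.

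**Figure D4:**
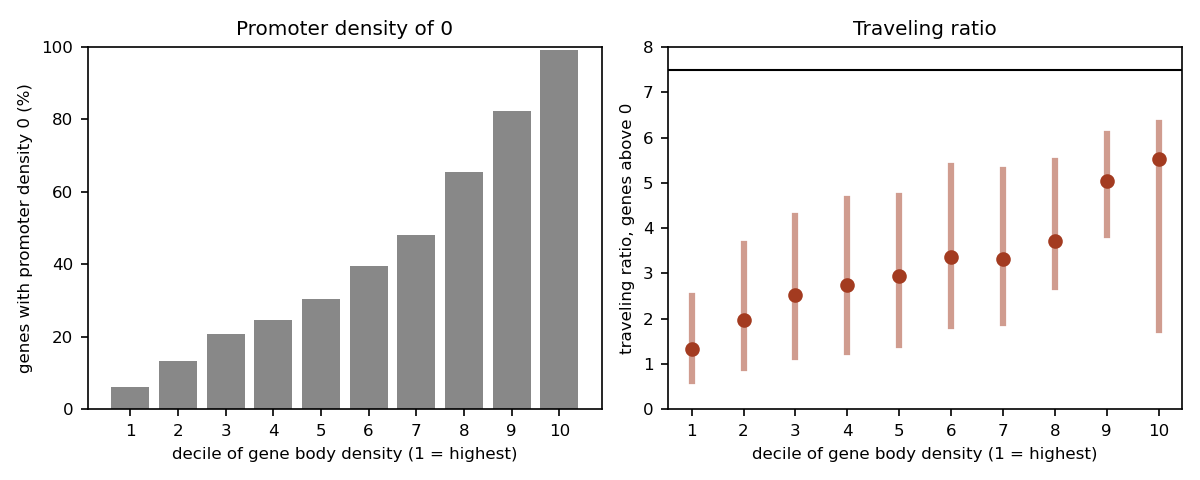
Share of genes with a promoter density of 0 (left, bars) and traveling ratio of genes above 0 (right, median and quartiles, with the limit of 7.5 as a line) by decile of DMSO gene body density, 1 being the highest. The share rises from 6.11% to 99.2% and the median ratio from 1.34 to 5.52 towards the lowest decile, where 10 genes have a ratio above 0.

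Traveling ratios ran from near 0 up to the limit with no gap before it. Of the 7093 genes with a ratio above 0, the median was 2.61 with quartiles of 1.23 and 4.50, and 4250 were above 2, which is 59.9% of them and 34.2% of all genes. The bin from 0.5 to 1 was the fullest, with 820 genes, and 232 genes remained between 7 and 7.5, so the distribution is cut while it still holds genes. Medians below are therefore medians of the part under the limit.

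By class, coding genes had the higher ratio: a median of 2.77 over 6064 genes above 0, with 62.6% above 2, against 1.67 over 1029 non-coding genes, with 44.3% above 2. MicroRNA genes were at 1.22, box C/D RNAs at 1.44 and H/ACA and Cajal body RNAs at 1.18, while long non-coding RNA genes were at 2.00 and pseudogenes at 2.99. The classes also differ in gene body density, with which the ratio falls. In the decile of all genes that holds the class median density, the median ratio was 1.34 for box C/D and for H/ACA and Cajal body RNAs. It was 2.53 for microRNA genes, 2.74 for non-coding genes together, and 3.37 for coding genes, long non-coding RNA genes and pseudogenes. The part of density in the class order was not tested. Without small RNA genes the non-coding median was 2.13, still below the coding one. In the recovered libraries the medians were 3.16 and 3.25 for coding genes and 2.15 and 2.12 for non-coding genes, so the order was the same in both.

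The ratio fell as gene body density rose, from a median of 5.52 in the lowest decile (10 genes) and 5.03 in the next (219 genes) to 1.97 and 1.34 in the 2 highest. Gene body density is the divisor of the ratio, and 1 read sets a higher floor for the ratio in low genes. Lists were therefore read against the decile of all genes that holds their median density. Ribosomal protein genes had a median ratio of 2.36 against 1.34 in their decile, with RPS13 highest at 7.16 and RPL17 lowest at 0.0438, from a single promoter read. Histone genes, at 1.49, lay near the same 1.34, from 5.95 in HIST1H2BF to 0.104 in HIST1H2AI.

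Among lists of similar density the ratios spread widely. p53 targets were at 3.98 and mitochondrial ribosomal protein genes at 3.35, against 1.97 in their decile, and glycolysis genes at 1.06 in the same decile. Library medians over genes with promoter reads in both were 4.89 and 3.26 for p53 targets (9 genes) and 3.40 and 3.94 for mitochondrial ribosomal proteins (14 genes), against 2.49 and 2.40 in that decile. For glycolysis they were 3.35 and 3.15 (4 genes), above the decile, so its low position did not hold there. FAS, a death receptor, had the highest ratio among p53 targets, 7.18, and AEN the lowest, 0.335. Immediate early and MAPK feedback genes were at 1.03, from 6.83 in EGR1 to 0.346 in ZFP36, and tubulins and actins at 1.09, against 1.34 in their decile. Over genes with promoter reads in both libraries, the library medians were 1.98 and 1.73 for the immediate early list (7 genes), above the 1.51 and 1.33 of the decile, and 1.33 and 2.07 for tubulins and actins (10 genes), on either side of it. Among the 38 lists, leaving out those with 1 gene above 0, the highest medians were 4.73 for cancer-testis antigens (16 genes above 0) and 4.41 for aminoacyl-tRNA synthetases (7 genes), against 3.37 and 2.52. Their library medians were 2.84 and 5.94 for cancer-testis antigens (4 genes), against 4.17 and 4.77 in the decile. For aminoacyl-tRNA synthetases they were 2.69 and 6.62 (2 genes), against 3.43 and 3.16. Both lists thus lay below their decile in library 1 and above it in library 2. Most of these list medians rest on few promoter reads per gene, and no test was made of the differences.

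**Figure D5:**
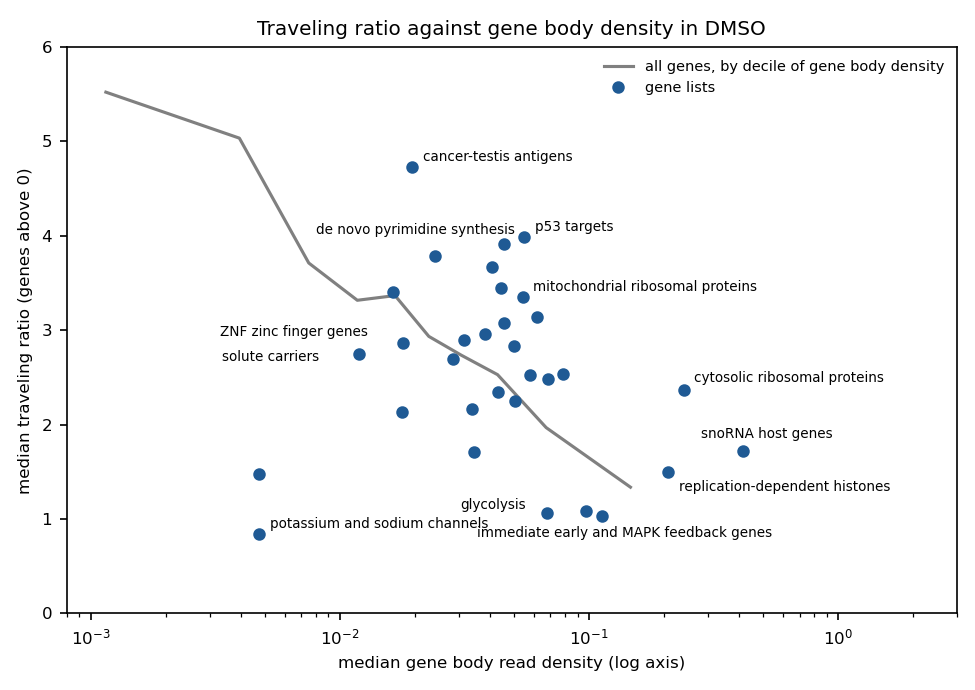
Median traveling ratio (genes above 0) against median gene body density (log axis) for gene lists with at least 8 genes above 0 (points) and for all genes by decile of gene body density (line). Ribosomal protein genes (2.36), p53 targets (3.98) and mitochondrial ribosomal protein genes (3.35) lie above the line at their density, and glycolysis genes (1.06) below it; over the 4 glycolysis genes with promoter reads in both libraries the library medians were 3.35 and 3.15.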

How the data were processed

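Nascent RNA of A375 cells was measured by GRO-seq in 2 DMSO samples (48 h). The submitters' processing notes name hg18, Bowtie 0.12.9 and bedtools; the window limits, the scaling, the library totals and the selection of rows are stated neither in those notes nor in the file headers, so the sequencing depth is unknown. Per the file headers, the deposited promoter and gene body columns are average values of the group, here read as a signal (read density), and the deposited traveling ratio is an average ratio of promoter to gene body. Of the tables' value columns 3 were used; the treated columns and the authors' folds (8 columns) were not.

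Values were read with Python 3 and pandas, without a filter or pseudocount; a filter at the 30th percentile of gene body density (0.00955) was applied where stated. A gene was coding or non-coding by the accession of its kept row. RefSeq matched 12037 genes (96.8%) by accession and gave classes and neighbours. Library values were solved from the mean promoter, mean gene body and mean ratio on a grid of 4 decimals: 11639 of 13020 rows with a promoter value (89.4%) had a single solution, and 78.6% of solved promoter values lay on whole reads against 0.0852% after a shift. The solver was tested on simulated rows. Libraries 1 and 2 were not matched to the labelled replicates. In 14 cases the symbol is written as a date.

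Named genes were the 10 highest gene bodies, coding gene bodies and promoters, the up to 4 highest members of a list, those with the highest and lowest ratio among genes at or above the 30th percentile, HEXIM1, DHODH and the markers; the microRNAs and hosts set side by side, the lowest list members and METTL12 were chosen after their values were seen. One gene that the rule names is not reported here. The members and lists were chosen with earlier results of these data known. No test across samples was possible. Alternatives tried are given in the closing section.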

Additional observations from a re-analysis of the deposited data

How the results depend on the processing

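Values without a test were recomputed under each alternative. No paired analysis was possible because the deposited columns are means that carry no replicate letters. The order non-coding above coding in gene body density reversed without small RNA genes (log2 0.00978) and held elsewhere. With genes at or above the 30th percentile alone, median gene body densities were 0.0293 (coding), 0.041 (non-coding) and 0.0436 (microRNA), median ratios 2.57 and 1.57 (coding, non-coding), and, in an alternative added after seeing the data, promoter densities of 0 reached 25.8% and 27.4%. Genes with both libraries recovered, also added after seeing the data, gave 0.028, 0.0378, 0.0502, 0.103 (box C/D), 0.205 (ribosomal proteins) and 0.186 (histones), and a log2 difference of -0.43. Each library alone, over those recovered genes, gave 0.0255 to 0.0295 for coding, 0.0338 to 0.0371 for non-coding, 0.045 to 0.0474 for microRNA, 0.0901 to 0.108 for box C/D, 0.185 to 0.221 for ribosomal protein and 0.17 to 0.196 for histone genes; log2 differences of -0.409 to -0.331; ratios of 3.16 to 3.25 for coding and 2.12 to 2.15 for non-coding genes. The set of genes is smaller there and holds only genes with promoter reads. Shares in the top 10.0% of the same genes were 8.51% to 8.72% for coding, 18.2% to 19.5% for non-coding, 20.7% to 24% for microRNA, 48.1% to 50% for box C/D, 89.7% to 93.1% for ribosomal protein and 76.9% to 92.3% for histone genes. Counting promoters below 0.02 with those at 0 gave 45.3% for coding genes, and the row with the highest promoter 40.9%. With ratios of 0 included the medians were 0.745 (coding) and 0.586 (non-coding), as quotients of means 2.7 and 1.55, and up to a ratio of 5 alone 2.12, 1.44 and 1.87 (ribosomal proteins). In the top 5% of genes the shares were 3.7% (coding), 13.1% (non-coding), 61% (box C/D), 12.6% (microRNA) and 65.5% (histones). With identical values counted once, 16.2% of non-coding and 16.2% of microRNA genes were in the top 10.0%. Depth limits ratios and promoter values, where 1 read is taken to be worth 0.0438 or 0.052.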
